A study of Mus musculus with 9 samples.

Results

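Collagen chain genes encode the polypeptides that assemble into the collagens of the extracellular matrix. Members were the genes whose symbol in the platform's probe annotation is Col, a number, a and a number, from probe sets that name 1 gene, with each gene read from whichever of its probe sets was brightest on average across the 9 arrays. This gave 42 collagen chain genes of 18193 genes measured. The rule used no difference between the groups. By structural class there were 11 fibrillar chains, 9 network chains, 9 fibril-associated chains of the FACIT class, 5 microfibrillar chains, 4 transmembrane chains, 2 multiplexins, 1 anchoring fibril chain and 1 other. Col28a1 and Col6a6 were not analysed here.

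Both groups were wild-type male C57BL6J mice, 6 to 8 weeks old, and the tissue was myocardium of the right ventricle. The banding group (5 arrays) had the pulmonary artery narrowed by a band, which raises the pressure the right ventricle works against. The sham group (4 arrays) had surgery only. Total RNA was read on one-colour Affymetrix expression arrays, and no source used here gives the time since surgery. Replicates are numbered, but nothing states that they are separate animals, so p-values measure only the spread between these samples. With 9 arrays, precision is limited by their number. In bulk tissue, fewer cells of a type and less RNA per cell cannot be told apart.

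A collagen molecule is built of 3 chains wound around each other, encoded by one gene or by several partner genes. Fibrillar collagens pack into the fibres that carry tension in the heart wall, and FACIT collagens coat those fibres. Network collagens form the sheets of basement membranes around muscle cells and vessels, and type VI collagen forms beaded filaments beside them. In the heart, fibroblasts are known as the main source of fibrillar chains, and collagen accumulates in fibrosis.

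Expression is given as log2 values, in which 1 unit is a doubling. A group mean under 4.198, which is 2 units above the lowest value in the table, is called dim. Differences are banding minus sham, with limma's adjusted p over all 18193 genes and a threshold of 0.05. Where only the sham mean was dim, the fold was computed against 4.198, or the array's own value where that was higher, and is written "at least". Where both groups were dim, no fold is given. Array medians lay between 3.23 and 3.31. Across all genes, pairs of arrays correlated at 0.993 to 0.997 within banding, at 0.983 to 0.997 within sham and at 0.945 to 0.977 between the groups. The 8 cardiomyocyte markers (contractile and calcium-handling genes such as Tnni3 and Myl2) had a log2 summed level of 18.28 to 18.47 on banding arrays and 18.54 to 18.60 on sham arrays, and none was dim. Transcripts of another organ were also present, and differed between the groups. The 12 liver markers, among them Alb and Apoa1, all passed the threshold as lower in banding, with summed levels of 6.69 to 9.90 on banding arrays and 13.31 to 17.00 on sham arrays. Sham replicate 4 held the 17.00 and banding replicate 5 the 9.90. Where leaving out these arrays changed a call, the value without them is given.

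In banded ventricles 24 of the 42 collagen chain genes were higher than in sham ventricles and none was lower. Over all genes 38.4% passed, 18.4% as higher and 20.0% as lower. The median difference of the 42 chains was 1.44 log2 units, against 0 for all 18193 genes. A rise of at least 1 unit was found for 23 chains, against 7.90% of all genes. A rise of at least 3 units was found for 10 chains, against 0.786% of all genes, and those 10 were Col1a1, Col1a2, Col5a1, Col5a2, Col11a1, Col8a1, Col8a2, Col12a1, Col14a1 and Col16a1. Every banding array lay above every sham array for 25 chains, against 17.4% of all genes, and below for none, against 19.3%. Of the 18 chains that did not pass, 16 were dim in both groups, and Col4a3 and Col4a4 were the exceptions. Col7a1 passed while dim in both groups. Without sham replicate 4, 23 chains passed as higher, and 23 did without sham replicate 4 and banding replicate 5. With the mean of the 12 liver markers as a covariate, a measure that separates the groups completely (2.94 to 5.04 on banding arrays and 8.48 to 12.55 on sham arrays), 16 chains passed as higher and 627 genes did in all.

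**Figure D1:**
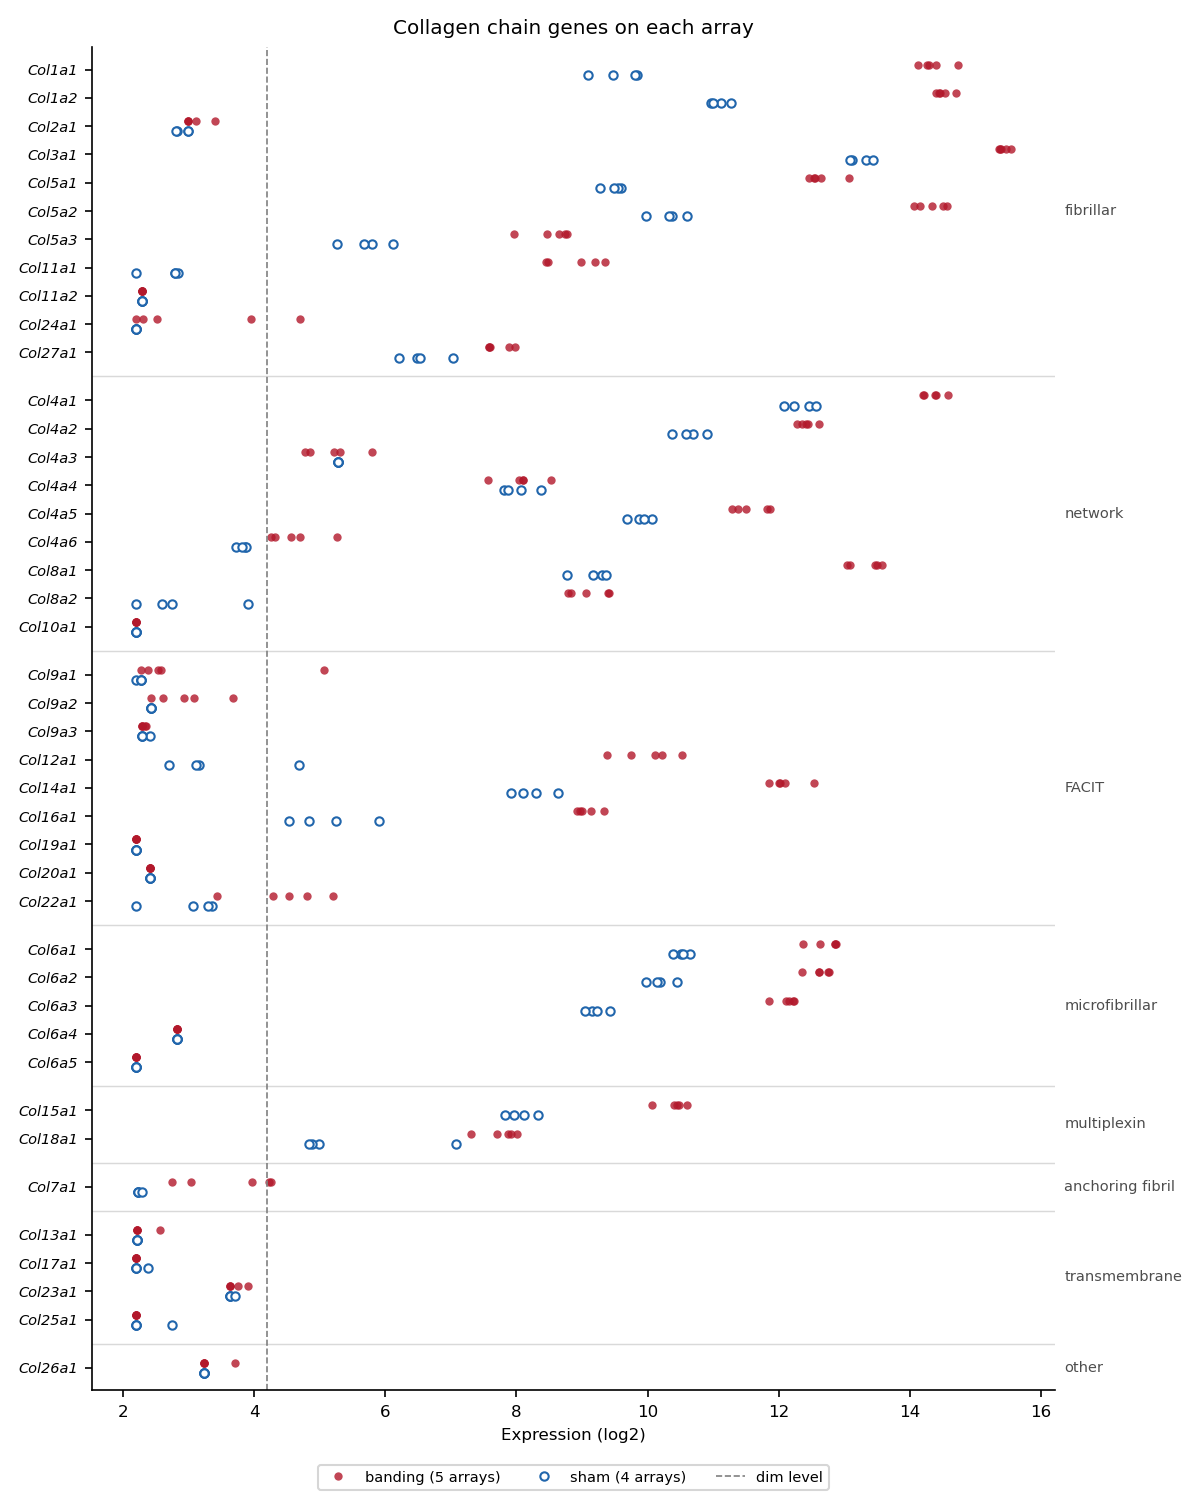
Expression of the 42 collagen chain genes (log2, horizontal axis) on each of the 5 banding arrays (filled red) and 4 sham arrays (open blue), by structural class, with the dim level of 4.198 as a dashed line. Chains such as Col1a1, Col8a1 and Col12a1 show wide gaps between the groups, Col4a3 and Col4a4 overlap, and most chains left of the line are dim in both groups.

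Promoter sequence is shown for 5 of the 24 chains that were higher, namely the type I and type III fibril chains Col1a2 and Col3a1, Col11a1 from the low-abundance fibrillar types, and both chains of type VIII collagen. The windows are RefSeq's on GRCm38.p6, each printed 5′ to 3′ on its gene's strand and restricted to bases before the start site. The Col11a1 stretch stops 62 bases before the start site, because the later bases lie inside the annotated span of a gene. The others run up to the start site. Capitals mark the motif CCAAT, known to be bound by NF-Y, and the motif GGGCGG, known to be bound by Sp1, on either strand. The window of Col1a2 is chr6:4505408-4505617 (plus strand), that of Col3a1 is chr1:45311328-45311537 (plus strand), and that of Col11a1 is chr3:114030290-114030478 (plus strand). The window of Col8a1 is chr16:57754738-57754947 (minus strand) and that of Col8a2 is chr4:126286584-126286793 (plus strand).
Col1a2: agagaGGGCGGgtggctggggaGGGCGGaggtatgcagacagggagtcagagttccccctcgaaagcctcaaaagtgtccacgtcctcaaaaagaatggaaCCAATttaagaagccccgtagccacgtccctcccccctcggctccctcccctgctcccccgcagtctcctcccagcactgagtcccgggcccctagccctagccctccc
Col3a1: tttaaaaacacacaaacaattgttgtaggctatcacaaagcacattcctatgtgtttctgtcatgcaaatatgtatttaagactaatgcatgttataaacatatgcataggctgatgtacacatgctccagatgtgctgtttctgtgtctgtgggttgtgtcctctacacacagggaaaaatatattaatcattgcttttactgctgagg
Col11a1: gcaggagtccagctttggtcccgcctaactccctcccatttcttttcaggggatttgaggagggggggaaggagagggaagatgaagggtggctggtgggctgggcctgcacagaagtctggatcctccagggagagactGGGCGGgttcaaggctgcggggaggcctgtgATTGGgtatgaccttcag
Col8a1: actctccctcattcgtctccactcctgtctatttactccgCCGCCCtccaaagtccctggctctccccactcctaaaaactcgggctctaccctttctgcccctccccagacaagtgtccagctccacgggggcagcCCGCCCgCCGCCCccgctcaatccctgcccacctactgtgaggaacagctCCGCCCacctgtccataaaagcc
Col8a2: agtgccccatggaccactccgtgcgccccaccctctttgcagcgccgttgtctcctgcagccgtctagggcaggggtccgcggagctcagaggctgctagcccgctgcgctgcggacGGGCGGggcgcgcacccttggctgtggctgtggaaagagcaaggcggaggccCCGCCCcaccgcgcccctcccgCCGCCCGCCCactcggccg
The Col1a2 window held CCAAT starting 109 bases before the start site and 2 copies of GGGCGG, and the Col3a1 window held neither. Both type VIII windows held 4 copies of GGGCGG. Col11a1 had a further GGGCGG starting 19 bases before the start site, in the part not printed. The motif counts below cover all 250 bases, including any inside an annotated gene span. RefSeq windows were found for 33 of the 42 chains (36 windows), 19 of them among the 24 higher chains (21 windows). Both strands of the 250 bases before each start site were searched for CCAAT, for the Sp1 motif GGGCGG, for the TATA-box letters TATAAA and for CAGACA, which holds the core letters bound by Smad proteins. None of these motifs holds another. CCAAT was in 9 of the 21 windows of higher chains (42.9%), in 13 of the 36 windows of all chains (36.1%) and in 33.8% of the 32851 windows of all genes. GGGCGG was in 15 of 21 (71.4%), 21 of 36 (58.3%) and 32.7% of these windows. TATAAA was in 1 of 21 (4.8%), 5 of 36 (13.9%) and 12.4%, and CAGACA was in 6 of 21 (28.6%), 8 of 36 (22.2%) and 17.1%. These matches describe letters only.

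Of the 11 fibrillar chains, 8 were higher in banding and 3 did not pass, and the class had a median difference of 2.81 log2 units. Type I collagen, the main fibre-forming collagen of the heart, is a heterotrimer of Col1a1 and Col1a2 chains. Col1a1 read 14.12, 14.74, 14.41, 14.30 and 14.26 on the banding arrays, against 9.84, 9.10, 9.47 and 9.81 on the sham arrays. The groups did not overlap, with banding replicate 2 highest and sham replicate 2 lowest. Its means were 14.36 ± 0.23 in banding and 9.55 ± 0.35 in sham (SD, n = 5 and 4), a difference of 4.81 (SE 0.19, adjusted p = 9.98e-06) or 28.0-fold. Col1a2 read 14.47, 14.70, 14.54, 14.45 and 14.40 on the banding arrays, against 11.12, 10.96, 10.996 and 11.27 on the sham arrays. These groups were also apart, and both were tight, at 14.51 ± 0.12 in banding and 11.09 ± 0.14 in sham. The difference was 3.42 (SE 0.08, adjusted p = 1.58e-06), or 10.7-fold.

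Col3a1 encodes the only chain of type III collagen, which forms thinner fibres together with type I. It read 15.39, 15.55, 15.46, 15.38 and 15.36 on the banding arrays, against 13.12, 13.09, 13.34 and 13.44 on the sham arrays. The banding arrays lay within a narrow range, all above sham, and the highest value in the whole table was 16.43. The difference was 2.18 (SE 0.08, adjusted p = 9.56e-06), or 4.52-fold, on this probe set. The other Col3a1 probe set gave a difference of 4.50, so the size of the Col3a1 change depends on which is read.

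Type V collagen starts fibril formation and limits fibril width. Col5a1 read 12.46, 13.07, 12.64, 12.56 and 12.54 on the banding arrays, against 9.60, 9.27, 9.55 and 9.50 on the sham arrays. Banding replicate 2 stood highest and no arrays overlapped. The Col5a1 difference was 3.18 (SE 0.13, adjusted p = 1.13e-05), or 9.03-fold. Its partner Col5a2 read 14.07, 14.57, 14.15, 14.50 and 14.34 on the banding arrays, against 10.37, 9.98, 10.61 and 10.33 on the sham arrays. Again the groups were apart, with banding replicates 1 and 3 the lowest of their group. The Col5a2 difference was 4.005 (SE 0.15, adjusted p = 9.98e-06), or 16.1-fold. Col5a3, a further type V chain, read 8.47, 8.74, 8.78, 8.65 and 7.96 on the banding arrays, against 6.12, 5.26, 5.80 and 5.68 on the sham arrays. Banding replicate 5 was lowest of its group and still above every sham array. The Col5a3 difference was 2.81 (SE 0.22, adjusted p = 9.36e-05), or 6.999-fold.

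Col11a1, a chain of type XI collagen that is best known from cartilage fibrils, read 8.47, 9.20, 8.46, 9.34 and 8.99 on the banding arrays, against 2.79, 2.20, 2.83 and 2.79 on the sham arrays. All sham arrays were dim and all banding arrays far above the dim level. The difference was 6.24 (SE 0.24, adjusted p = 9.98e-06), and the fold was at least 25.9. Its partner Col11a2 read 2.28 on all 9 arrays, and the cartilage chain Col2a1 was dim in both groups (difference 0.19, adjusted p = 0.181). Col27a1, a fibrillar chain known from cartilage, read 7.58, 7.89, 7.58, 7.60 and 7.98 on the banding arrays, against 6.49, 6.20, 7.03 and 6.53 on the sham arrays. It had the smallest rise of the 8 higher fibrillar chains, with sham replicate 3 closest to the banding arrays. The Col27a1 difference was 1.17 (SE 0.17, adjusted p = 0.00125), or 2.25-fold. Col24a1, known from developing bone, read 2.52, 3.95, 4.69, 2.31 and 2.20 on the banding arrays and 2.20 on every sham array. Its mean was dim in both groups and the difference of 0.94 (SE 0.55, adjusted p = 0.253) did not pass.

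Markers of cartilage and bone were examined beside the type II and type XI chains. Of 10 listed, 8 were measured and 6 of these (Acan, Matn1, Matn3, Hapln1, Chad and Ibsp) were dim in both groups. Sox9 and Comp were higher, by 2.93 and 4.05 log2 units. The summed level of the 8 was 10.76 to 11.60 on banding arrays and 7.14 to 7.90 on sham arrays. Most of that sum was Comp, with means of 10.87 in banding and 6.82 in sham. The part of these markers in the Col11a1 difference was not tested.

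Among the 9 network chains 6 were higher, 3 did not pass and the median difference was 1.68. Col4a1 and Col4a2 form the type IV collagen found in all basement membranes. Col4a1 read 14.19, 14.41, 14.22, 14.58 and 14.38 on the banding arrays, against 12.47, 12.07, 12.57 and 12.24 on the sham arrays. Banding replicate 4 was highest and the groups were apart, with a difference of 2.02 (SE 0.12, adjusted p = 3.56e-05), or 4.05-fold. Col4a2 read 12.42, 12.44, 12.28, 12.62 and 12.35 on the banding arrays, against 10.70, 10.37, 10.90 and 10.58 on the sham arrays. Its order of arrays was much the same, with banding replicate 4 highest and sham replicate 2 lowest, and its difference was 1.78 (SE 0.11, adjusted p = 4.14e-05), or 3.44-fold.

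The remaining type IV chains did not all move together. Col4a5, which pairs with Col4a3 and Col4a4 in one type of basement membrane and with Col4a6 in another, read 11.29, 11.38, 11.51, 11.82 and 11.86 on the banding arrays, against 9.87, 10.06, 9.69 and 9.95 on the sham arrays. All banding arrays were above all sham arrays, and the difference was 1.68 (SE 0.14, adjusted p = 0.000119), or 3.20-fold. Col4a3 read 5.80, 4.86, 5.21, 5.31 and 4.78 on the banding arrays, against 5.27, 5.27, 5.28 and 5.27 on the sham arrays. Its banding arrays fell on both sides of the sham arrays, and the difference of -0.08 (95% interval -0.55 to 0.39, adjusted p = 0.874) did not pass. Sham replicates 1, 2 and 4 shared an identical Col4a3 value, as arrays often did for chains dim in both groups. Whether this probe set was above its background is therefore not known. Col4a4 read 8.52, 8.04, 8.10, 8.10 and 7.57 on the banding arrays, against 8.07, 7.82, 8.38 and 7.87 on the sham arrays. These groups overlapped as well, with a difference of 0.03 (95% interval -0.43 to 0.50) that did not pass, and the sign of both small differences turned under some alternative settings. Col4a6 read 5.26, 4.70, 4.31, 4.56 and 4.26 on the banding arrays, against 3.72, 3.85, 3.87 and 3.82 on the sham arrays. The sham arrays were dim and the banding arrays only just above the dim level, and the difference was 0.80 (SE 0.20, adjusted p = 0.0148), at least 1.34-fold. Col4a6 did not pass with dim values raised to the dim level (0.42, adjusted p = 0.163) or with the liver index as a covariate (0.48, adjusted p = 0.758).

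Type VIII collagen is a short-chain network collagen of vessel walls and of the cornea. Col8a1 read 13.04, 13.48, 13.09, 13.58 and 13.50 on the banding arrays, against 9.31, 8.76, 9.36 and 9.17 on the sham arrays. Banding replicates 1 and 3 were the lowest of their group, all were above sham, and the difference was 4.19 (SE 0.17, adjusted p = 1.05e-05), or 18.2-fold. Col8a2 read 8.84, 9.39, 8.79, 9.41 and 9.05 on the banding arrays, against 2.74, 2.20, 2.60 and 3.90 on the sham arrays. Sham replicate 4 was the highest sham array and still dim. The Col8a2 difference was 6.24 (SE 0.34, adjusted p = 2.53e-05), at least 29.8-fold, and it was 6.58 without sham replicate 4. Col10a1, the network chain of hypertrophic cartilage, read 2.20 on every array.

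Among the 9 FACIT chains 4 were higher, and the 5 that did not pass were all dim in both groups. The median difference of 0.71 was the value of Col9a1, a chain dim in both groups. Col12a1, whose product sits on type I fibrils in tissues under tension, had the largest difference of the 42 chains. It read 9.38, 10.12, 9.75, 10.53 and 10.22 on the banding arrays, against 3.15, 3.11, 2.69 and 4.69 on the sham arrays. Sham replicate 4 was the only sham array above the dim level, and the difference was 6.59 (SE 0.43, adjusted p = 4.75e-05), at least 51.2-fold. Without that array the Col12a1 difference was 7.01. Another Col12a1 probe set gave 3.66, and its remaining 2 probe sets were dim.

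Col14a1, which also coats type I fibrils, read 11.85, 12.54, 12.09, 12.00 and 12.02 on the banding arrays, against 7.92, 8.10, 8.30 and 8.63 on the sham arrays. Banding replicate 2 was highest, the groups were apart, and the difference was 3.86 (SE 0.18, adjusted p = 1.59e-05), or 14.5-fold. Col16a1, a FACIT chain found near small fibrils and microfibrils, read 8.93, 9.33, 8.99, 9.14 and 8.96 on the banding arrays, against 4.84, 4.52, 5.91 and 5.25 on the sham arrays. The groups were apart, at 9.07 ± 0.17 in banding and a more scattered 5.13 ± 0.60 in sham, and the difference was 3.94 (SE 0.27, adjusted p = 5.39e-05), or 15.4-fold. Col22a1, known from the junction of muscle and tendon, read 5.20, 4.54, 4.81, 4.28 and 3.44 on the banding arrays, against 3.07, 3.35, 3.30 and 2.20 on the sham arrays. Banding replicate 5 lay just above the highest sham array and was itself dim. The Col22a1 difference was 1.47 (SE 0.40, adjusted p = 0.0206), at least 1.19-fold, and it was 1.21 with an adjusted p of 0.0501 without sham replicate 4. Without probe sets whose names mark shared probes, Col22a1 gave 0.23 (adjusted p = 0.351). That value came from another probe set, dim in both groups, which could hardly show a change.

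Col9a1, Col9a2 and Col9a3, the type IX chains of cartilage, were dim in both groups. Col9a1 read 5.06, 2.53, 2.38, 2.28 and 2.58 on the banding arrays, against 2.20, 2.27, 2.27 and 2.27 on the sham arrays. Only banding replicate 1 was above the dim level, and although no arrays overlapped, the difference of 0.71 (SE 0.58, adjusted p = 0.434) did not pass. Col19a1 and Col20a1 each read a single level on all 9 arrays.

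Type VI collagen forms beaded microfilaments at the border between basement membranes and fibrillar matrix, from Col6a1, Col6a2 and a longer chain such as Col6a3. All of these were higher, and the other 2 of the 5 microfibrillar chains, Col6a4 and Col6a5, were dim in both groups. The median difference of the class was 2.20. Col6a1 read 12.86, 12.87, 12.86, 12.63 and 12.37 on the banding arrays, against 10.50, 10.39, 10.65 and 10.55 on the sham arrays. The difference was 2.20 (SE 0.12, adjusted p = 2.3e-05), or 4.58-fold. Banding replicate 5 was lowest of its group for all 3 chains, and no arrays overlapped. Col6a2 read 12.77, 12.75, 12.62, 12.62 and 12.36 on the banding arrays, against 10.20, 9.98, 10.45 and 10.14 on the sham arrays, and its difference was 2.43 (SE 0.12, adjusted p = 1.75e-05), or 5.39-fold. Col6a3 read 12.23, 12.22, 12.16, 12.11 and 11.86 on the banding arrays, against 9.15, 9.04, 9.42 and 9.23 on the sham arrays. Its difference was 2.91 (SE 0.10, adjusted p = 8.75e-06), or 7.502-fold, and its banding arrays stayed within a narrow band.

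Both multiplexins, basement membrane collagens whose C-terminal ends release endostatin-like fragments, were higher. Col15a1, a chain known to be needed for intact heart and skeletal muscle capillaries in mice, read 10.41, 10.47, 10.60, 10.45 and 10.06 on the banding arrays, against 8.12, 7.96, 8.33 and 7.83 on the sham arrays. The groups were apart, and the difference was 2.34 (SE 0.14, adjusted p = 3.13e-05), or 5.06-fold. Col18a1 read 7.71, 8.01, 7.87, 7.92 and 7.31 on the banding arrays, against 4.98, 4.88, 4.84 and 7.07 on the sham arrays. Sham replicate 4, the array with the highest liver marker level, stood just below the banding arrays, while the other sham arrays lay close together. The Col18a1 difference was 2.32 (SE 0.48, adjusted p = 0.00629), or 4.99-fold, and it was 2.86 without sham replicate 4. A further Col18a1 probe set differed by 1.83 and, tested singly, did not pass (adjusted p = 0.0515).

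Col7a1, the chain of the anchoring fibrils under stratified epithelia, read 2.75, 4.26, 3.04, 4.23 and 3.96 on the banding arrays, against 2.23, 2.23, 2.23 and 2.28 on the sham arrays. Banding replicates 2 and 4 reached the dim level, and both group means were dim. The Col7a1 difference of 1.40 (SE 0.35, adjusted p = 0.0142) passed, and no fold is given. The call was lost when sham replicate 4 and banding replicate 5 were left out (1.34, adjusted p = 0.0751), with dim values raised to the dim level (0.019, adjusted p = 0.415), or with the liver index as a covariate (1.77, adjusted p = 0.357). The 4 transmembrane chains Col13a1, Col17a1, Col23a1 and Col25a1 were dim in both groups, with differences of -0.14 to 0.07, and none passed. Col26a1 was dim as well, with a difference of 0.10.

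**Figure D2:**
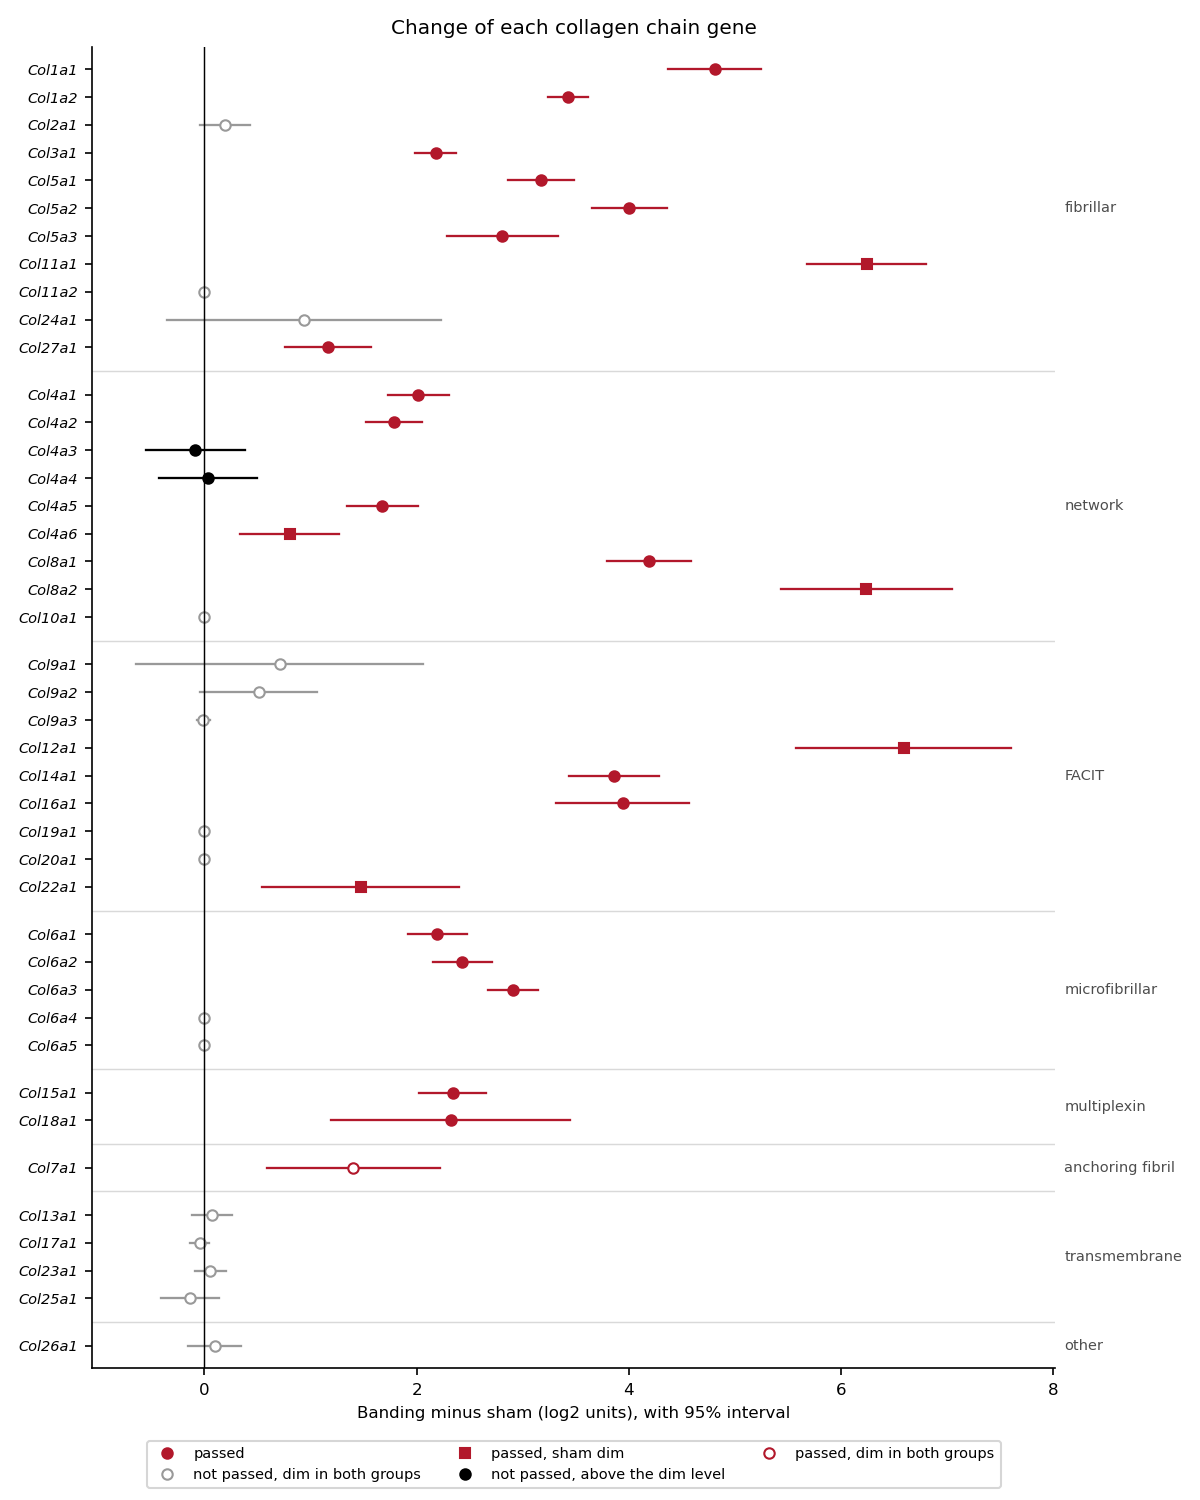
Banding minus sham difference (log2 units, horizontal axis) of each collagen chain gene with its 95% interval, by structural class. The 24 chains that passed are red (squares where sham was dim, an open circle for Col7a1, dim in both groups), Col4a3 and Col4a4 are black at about 0, and grey open circles are chains dim in both groups that missed the threshold.

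On the brightest probe sets, partner chains that assemble into one molecule did not all show the same change. Probe sets of a single gene also differed, by a median of 0.67 log2 units among 14 higher chains and by up to 2.93. The tests below measure only the spread between arrays, so gaps of that size cannot be told from differences between probe sets. For 10 pairs in which neither chain was dim in either group, the difference between their changes was tested by exact permutation over all splits of the arrays into 5 and 4 (two-sided, smallest possible p 0.00794), adjusted over the 10. In type IV collagen, Col4a1 rose more than Col4a2 by 0.23 (exact p = 0.0159, adjusted 0.0227), and Col4a3 minus Col4a4 was -0.12 (exact p = 0.476), a difference that kept its sign in 4 of 6 probe set combinations. For 3 further pairs, chosen after their values were seen, values are given with no test. The change of Col4a5 exceeded that of Col4a3 by 1.76 log2 units (1.05 to 1.76 over 4 probe set combinations) and that of Col4a4 by 1.64 (0.997 to 1.71 over 6). The change of Col4a1 exceeded that of Col4a4 by 1.98 (1.91 to 2.15 over 6 combinations).

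In type V collagen, Col5a2 rose more than Col5a1 by 0.83 (exact p = 0.00794, adjusted 0.0132), with 0.28 to 1.999 over 6 probe set combinations. Col5a2 also rose more than Col5a3 by 1.198 (exact p = 0.00794, adjusted 0.0132), with 1.198 and 2.37 from its 2 combinations. Col5a1 minus Col5a3 was 0.37 (exact p = 0.0952, adjusted 0.106) and did not pass. In type VI collagen, Col6a3 rose more than Col6a1 by 0.71, for which there was 1 combination, and more than Col6a2 by 0.48, with 0.69 on the other combination (exact p = 0.00794, adjusted 0.0132 for each). Col6a2 rose more than Col6a1 by 0.24 (exact p = 0.0238, adjusted 0.0298), but by 0.021 on the other Col6a2 probe set. In type I collagen, Col1a1 rose more than Col1a2 by 1.39 on the brightest probe sets (exact p = 0.00794, adjusted 0.0132), but 2 of the 4 combinations had the opposite sign, and the lowest was -1.93. Likewise Col5a2 rose more than its gene neighbour Col3a1 by 1.83 (exact p = 0.00794, adjusted 0.0132), with 3 of 4 combinations of that sign and a lowest value of -0.49.

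Several of these chains are also neighbours in the genome. In RefSeq, no protein-coding gene lies between Col3a1 and Col5a2, Col4a5 and Col4a6, or Col6a1 and Col6a2. The annotated spans of Col4a1 and Col4a2 overlap, as do those of Col4a3 and Col4a4, so no gene can lie between them. Col4a1 and Col4a2 lie on opposite strands, and their RefSeq windows overlap by 78 bases when the 50 bases after each start site are included. The stretches of 250 bases before the 2 start sites do not overlap. Both genes of the Col4a1 and Col4a2, Col3a1 and Col5a2, Col6a1 and Col6a2, and Col4a5 and Col4a6 pairs were higher in banding, and neither gene of the Col4a3 and Col4a4 pair passed.

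The 42 chains were covered by 82 probe sets, 37 of them dim in both groups. Among the 24 higher chains, 14 had several probe sets that were not dim in both groups. For 13 of the 14, all such probe sets were higher and passed singly, and Col18a1 was the exception. The median range over a gene's probe sets was 0.67 log2 units and the largest was 2.93, for Col12a1. Col1a1 ran from 2.57 to 4.81, Col1a2 from 3.42 to 4.51, Col5a2 from 4.005 to 5.17 and Col8a1 from 4.19 to 4.98. Other chains were tight, with Col4a1 at 2.02 to 2.11 and Col6a2 at 2.22 to 2.43. Col4a3 (-0.08 to 0.05) and Col4a4 (-0.04 to 0.11) stayed near 0 on each of their probe sets. Identical values recurred on both Col4a3 probe sets, so a lack of change in Col4a3 may not have been measurable. On the less bright one, banding replicates 2, 3 and 4 and sham replicate 3 all read 4.874.

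**Figure D3:**
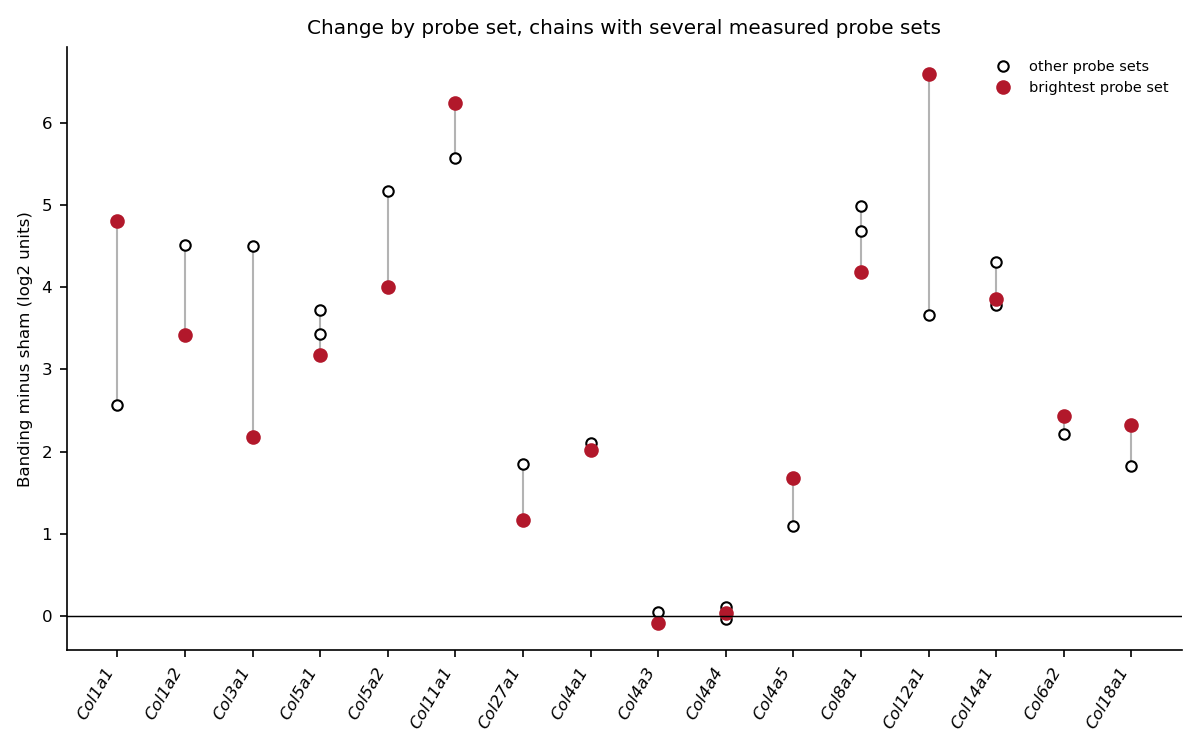
Banding minus sham difference (log2 units, vertical axis) of every probe set not dim in both groups, for chains with several such probe sets. The brightest probe set, which stands for the gene, is filled red and the others are open. All values of the higher chains are above 0, Col12a1 runs from 3.66 to 6.59, and Col4a3 and Col4a4 stay near 0.

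Within the groups, the arrays differed in which chains they held at a high or low level. Among the 24 higher chains, banding replicate 2 was the highest banding array for 10, among them Col1a1, Col1a2, Col3a1, Col5a1 and Col14a1, and the lowest for none. Banding replicate 4 was highest for 6, namely Col11a1, Col4a1, Col4a2, Col8a1, Col8a2 and Col12a1, and also lowest for none. Banding replicate 1 was lowest for 11 and highest for 4. Banding replicate 5 was lowest for 10, among them all 3 higher type VI chains, Col15a1, Col18a1 and Col5a3. Banding replicates 1 and 3 were the lowest pair for 8 chains, Col5a2, Col11a1, Col27a1, Col4a1, Col8a1, Col8a2, Col12a1 and Col7a1. In the sham group, replicate 2 was lowest for 16 of the 24 chains, replicate 3 was highest for 12, and replicate 4 was highest for 7, among them Col8a2, Col12a1 and Col18a1. The SD of a higher chain was 0.08 to 0.71 among banding arrays and 0.03 to 1.09 among sham arrays. These orders are a description of 9 arrays, with no test.

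**Figure D4:**
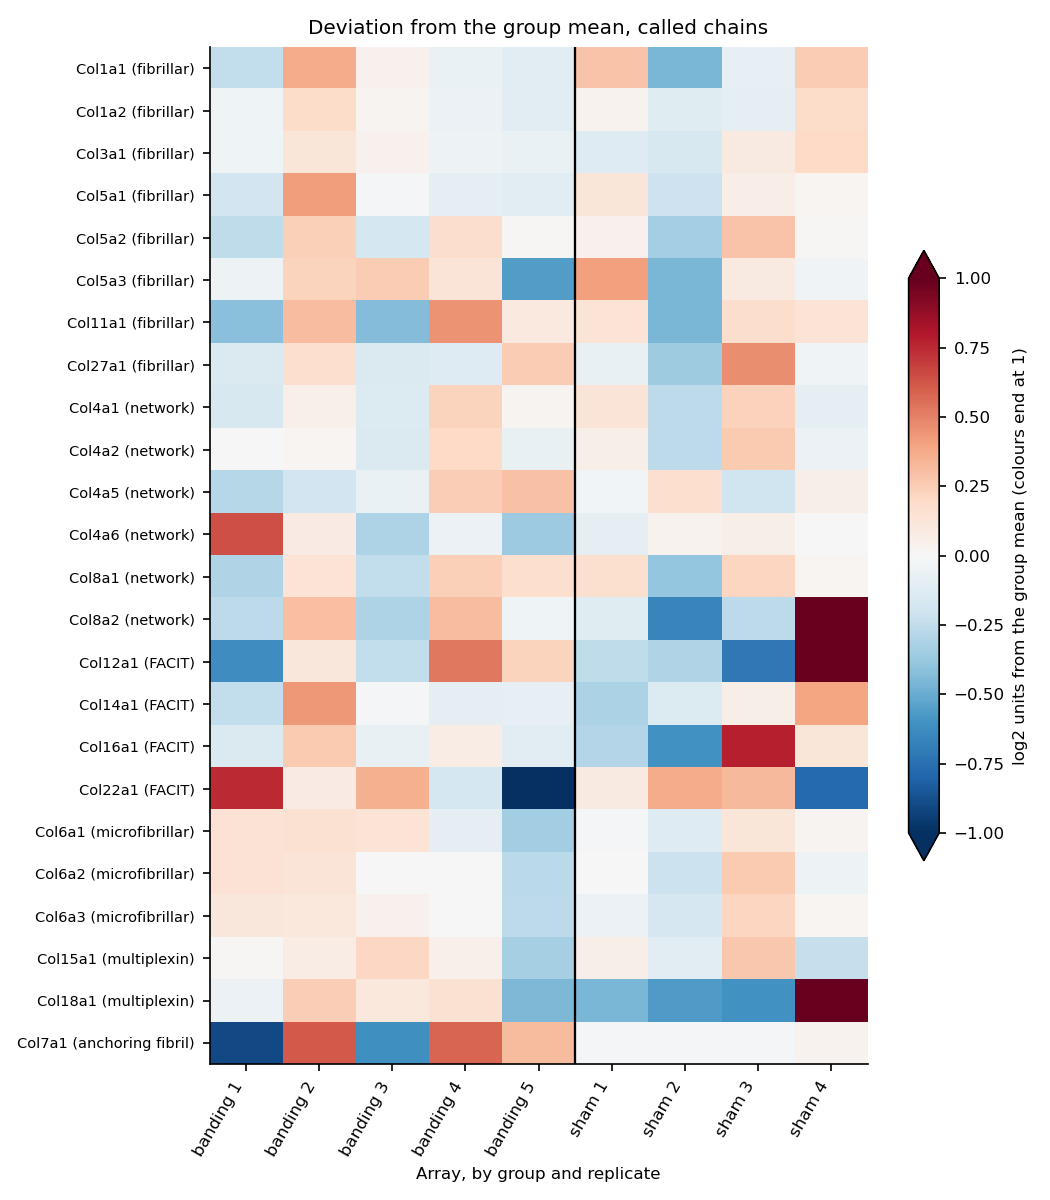
Deviation of each array from its own group's mean (log2 units, colour scale ending at 1) for the 24 chains that were higher, with 5 banding arrays left of the line and 4 sham arrays right of it. Banding replicate 2 is mostly red, sham replicate 2 mostly blue, and sham replicate 4 is dark red for Col8a2, Col12a1 and Col18a1.

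Genes that modify, fold, crosslink, bind and break down collagen were set beside the chains. Collagen chains are hydroxylated and glycosylated in the endoplasmic reticulum before the helix closes. Of 15 such genes 13 were higher, P3h4 was lower (difference -0.49, SE 0.09, adjusted p = 0.00302) and Colgalt2 did not pass. P4ha1, a subunit of the prolyl 4-hydroxylase that stabilises the helix, averaged 9.59 ± 0.23 in banding and 8.52 ± 0.21 in sham, a difference of 1.07 (SE 0.14, adjusted p = 0.000787), or 2.10-fold. The prolyl 3-hydroxylases P3h2 and P3h3 rose by 2.41 (SE 0.19, adjusted p = 9.43e-05) and 2.10 (SE 0.17, adjusted p = 9.99e-05). Crtap, a partner of prolyl 3-hydroxylase, rose by 1.29, and Plod2, the lysyl hydroxylase of the telopeptides, by 1.47.

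Of 12 genes listed for folding, export and propeptide removal, 9 were measured, 5 were higher and 4 did not pass. Serpinh1, the collagen chaperone also called Hsp47, read 13.001, 13.50, 13.27, 13.21 and 13.09 on the banding arrays, against 11.90, 11.55, 11.42 and 11.41 on the sham arrays. The groups were apart, and the difference was 1.65 (SE 0.14, adjusted p = 0.000103), or 3.13-fold. Pcolce, which speeds removal of the C-propeptide, rose by 2.33 (SE 0.14, adjusted p = 3.2e-05), Bmp1, the protease that removes it, by 1.83 (SE 0.14, adjusted p = 8.95e-05), and the prolyl isomerase Fkbp14 by 1.497.

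Lysyl oxidases crosslink collagen and elastin outside the cell. Lox read 12.33, 13.27, 12.57, 13.40 and 13.34 on the banding arrays, against 7.18, 6.80, 6.77 and 6.72 on the sham arrays. As for Col11a1 and Col12a1, banding replicates 1 and 3 were the lowest of their group. The Lox difference was 6.11 (SE 0.26, adjusted p = 1.13e-05), or 69.2-fold. Loxl3 rose by 3.75 and Loxl1 by 2.36, while Loxl4 was dim in both groups, and 4 of the 5 listed genes were measured.

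Of 10 listed collagen receptors 9 were measured and 6 were higher. Mrc2, an endocytic receptor that takes up collagen, rose by 2.42 (SE 0.10, adjusted p = 1.13e-05), or 5.34-fold. The integrin subunits Itga1 and Itgb1 rose by 1.43 and 1.06, and the collagen-binding kinase Ddr1 by 1.06 (SE 0.11, adjusted p = 0.000237). Without probe sets whose names mark shared probes, Ddr1 differed by 0.57 and did not pass (adjusted p = 0.0529). The related kinase Ddr2 averaged 8.74 ± 0.32 in banding and 8.50 ± 0.05 in sham, and its difference of 0.23 (SE 0.16, adjusted p = 0.328) did not pass. Itga10 passed with a difference of 0.04 while dim in both groups. Among 8 genes of collagen degradation, 4 were higher, namely Mmp14 by 3.76 (SE 0.10, adjusted p = 2.54e-06), Ctsk by 3.03, Fap by 2.70 and Mmp2 by 2.23. Pepd, which recycles proline from collagen peptides, was lower (difference -0.36, adjusted p = 0.0048), and the collagenases Mmp8 and Mmp13 and the gelatinase Mmp9 were dim in both groups.

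**Figure D5:**
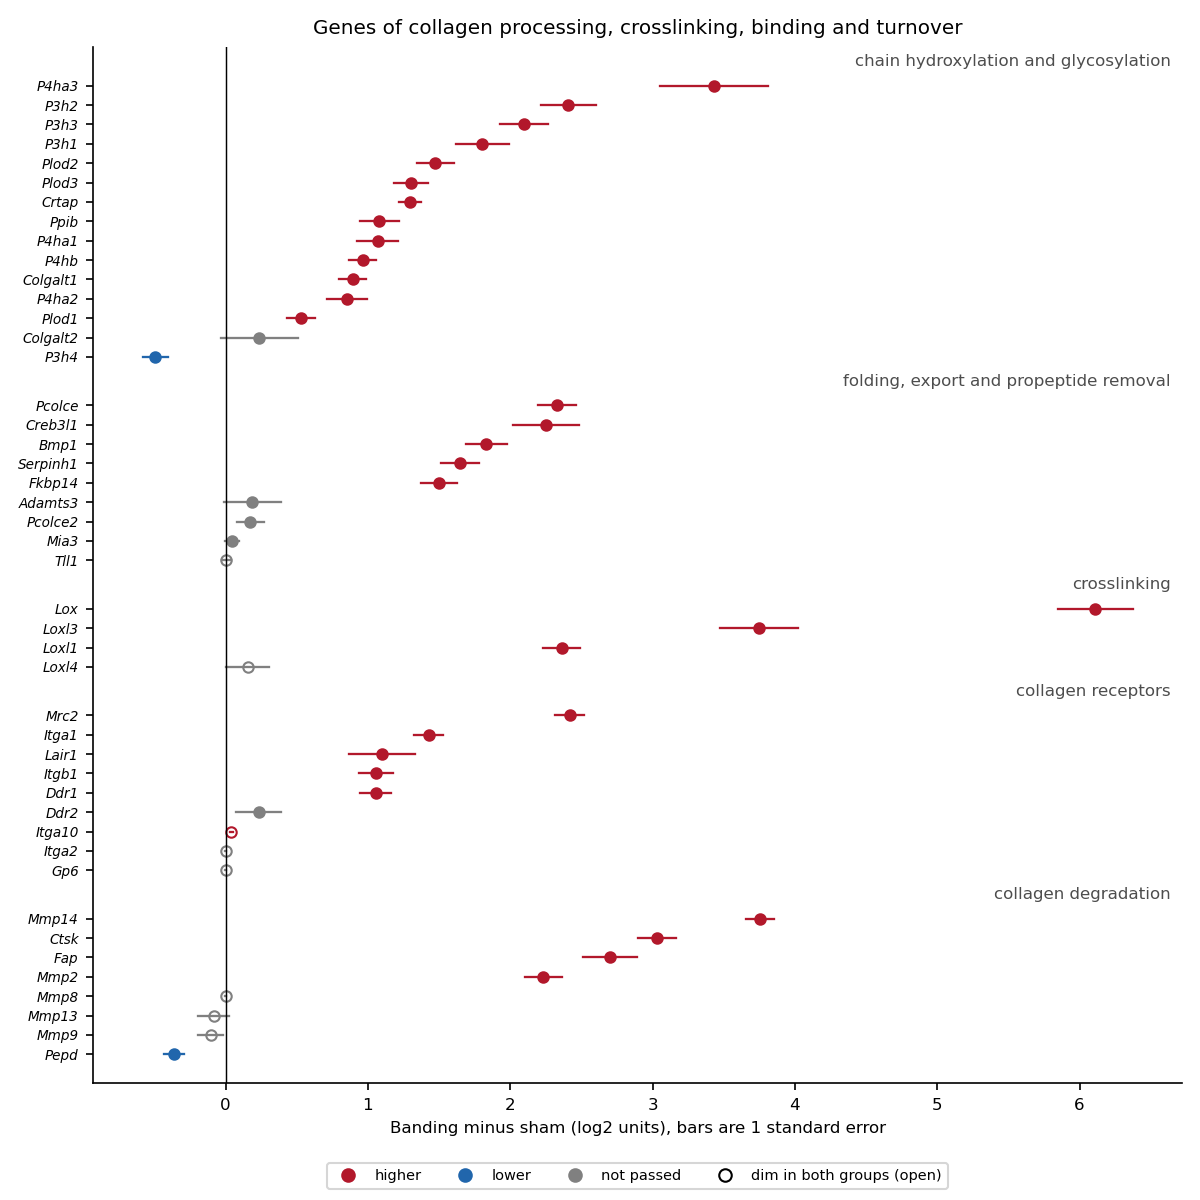
Banding minus sham difference (log2 units, horizontal axis, bars 1 SE) of the measured genes of chain modification, folding, crosslinking, collagen binding and degradation. Higher genes are red, lower genes blue, genes that did not pass grey and genes dim in both groups open, with Lox farthest right at 6.11 and P3h4 and Pepd left of 0.

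Lists of cell type markers differed in the direction and extent of their change. Over all genes, 18.4% passed as higher and 20.0% as lower. All 6 myofibroblast markers were higher, with differences from 0.33 for Acta2, whose groups of arrays overlapped, to 9.07 for Cthrc1. Postn rose by 4.65 and was the brightest of them in banding. The summed levels of the 6 were 15.67 to 16.08 on banding arrays and 12.92 to 13.21 on sham arrays. Of 8 fibroblast markers 6 were higher and 2, Gsn and Scara5, were lower, and the summed level was 15.43 to 15.97 on banding arrays and 15.48 to 15.68 on sham arrays. Differences of the fibroblast markers ran from -3.14 (Scara5) to 3.12 (Mfap5) with a median of 0.56. Dcn and Pdgfra, with the smallest rises of the 6, rose by 0.45 and 0.54. The 7 endothelial markers had 5 higher, at 12.25 to 12.74 on banding arrays and 11.99 to 12.21 on sham arrays. The 6 pericyte markers had 4 higher and 1 lower, at 14.16 to 14.72 on banding arrays and 14.37 to 14.39 on sham arrays. The 7 macrophage markers had 5 higher and 1 lower, at 13.97 to 14.49 on banding arrays and 13.19 to 13.45 on sham arrays. Smooth muscle markers gave 2 of 5 higher, at 10.11 to 10.75 on banding arrays and 9.61 to 10.35 on sham arrays. The 2 were Cnn1, which is also among the 6 myofibroblast markers, and Mylk, whose groups of arrays overlapped. Of the cardiomyocyte markers, 4 of 8 were lower and none was higher. The 7 epicardial and mesothelial markers had 3 higher and 4 not passing, at 8.91 to 9.80 on banding arrays and 8.34 to 9.89 on sham arrays, and of 3 measured Schwann cell markers 1 was lower, at 5.76 to 6.38 on banding arrays and 6.49 to 7.23 on sham arrays. None of these lists was entirely at the floor, and the part of cell numbers in the collagen differences was not tested.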

How the data were processed

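Right ventricular RNA of 5 banding and 4 sham samples was measured on one-colour arrays. The deposited table holds log2 values per probe set that the authors had background corrected and normalised. RMA and GCRMA are named in the submitters' processing notes, with neither their versions nor their roles. The scale was read from the values, which run from 2.20 to 16.43. No source used here gives filters, batches or scan times, and arrays carry no read depth, so their number limits precision.

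Of 45101 probe sets, 64 controls, 9160 naming no gene and 932 naming several were left out. The remaining 34945 name 18193 genes, each read from its probe set of highest average level, and no further normalisation or filter on dim genes was applied. The groups were compared with limma 3.58.1 (lmFit and eBayes, R 4.3.3), as a two-sided comparison without covariate, and p-values were adjusted by Benjamini-Hochberg across the 18193 genes. The fitting code was run on simulated data with normal noise and far fewer changed genes than passed here. That run does not measure error rates in these data. Differences between partner chains used exact permutation. Figures and motif searches used Python 3.11.15, pandas 2.3.3, numpy 2.4.6 and matplotlib 3.10.9.

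The members, classes, pathway lists and markers were chosen with earlier results of these data known. All chains may be named, with per-array values for chains that passed with a change of 1 log2 unit or more and for their partners. Up to 4 genes with the smallest p were named from each pathway list, plus Serpinh1, P4ha1, Bmp1, Lox and Ddr2. P3h4, Colgalt2, Itga10, Pepd, Mmp8, Mmp9, Mmp13 and the markers given singly were named after their values were seen. Per-array values of Col4a6, Col9a1 and Col24a1 were likewise added.

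Replicate numbers occur in both groups. After group means were removed, same-numbered arrays correlated at -0.03 to 0.04 and no banding array correlated best with its own number, so the numbers were not taken as pairs. Alternatives covered the probe set choice, dim values, normalisation, fitting, array weights, a replicate block, a liver index covariate and leaving out arrays.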

Additional observations from a re-analysis of the deposited data

Results flagged for a closer look

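The 25 chains above the dim level in at least 1 group gave 50 groups of arrays. The sham arrays of Col4a3 (5.27 to 5.28) were left out because they hardly varied. Of the other groups, 2 held an array that stood apart from the rest of its group by Dixon's test. At its 95% level chance alone marks about 1 group in 20. Col18a1, a basement membrane multiplexin chain, read 7.07 on sham replicate 4 and 4.84 to 4.98 on the other sham arrays. The gap was 0.934 of the range of the group, and that array also held the highest summed level of liver markers (17.00, against at most 14.64 on the other sham arrays). Whether the 2 are linked was not tested. Col11a1, a fibrillar chain, read 2.20 on sham replicate 2, the lowest value of the table, and 2.79 to 2.83 on the other sham arrays, a gap of 0.934 of the range, and all 4 sham arrays were dim.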

How the results depend on the processing

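The number of chains higher in banding was 24 and ran from 16 to 26 under the alternatives, lowest with the liver index as a covariate and highest after quantile normalisation, and no chain was lower under any of them. Leaving out 1 array gave 23 or 24. The median difference of the 42 chains, 1.44, was 2.62 when only genes above the dim level were kept and 0.79 with dim values raised to the dim level. FACIT chains that were higher numbered 2, against 4, without probe sets whose names mark shared probes. In that setting Col22a1 was read from a probe set dim in both groups and did not pass. Col16a1 was not tested because its only probe set was removed. The higher FACIT chains also numbered 2 with the liver index. The fibrillar, network and microfibrillar counts stayed within 1.5 times. A replicate block, which used replicates 1 to 4 of both groups and so left out banding replicate 5, gave 22 higher chains, and Col4a6 (0.89, adjusted p = 0.0644) and Col7a1 (1.32, adjusted p = 0.0829) no longer passed. Over all genes the calls were 3356 higher and 3633 lower. They numbered 2549 and 2728 with the block and 627 and 701 with the liver index.

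Some small differences changed sign. With the liver index Col22a1 was -0.94, Col4a4 -0.86 and Ddr2 -0.14, none past the threshold. Col4a3 was 0.019 under the block and 0.018 without both banding replicate 5 and sham replicate 4, and leaving out single arrays gave -0.24 to 0.019, that highest value without banding replicate 5. Col4a4 was -0.0093 with arrays centred on their medians, and leaving out single arrays gave -0.081 to 0.16, below 0 without banding replicate 1, sham replicate 2 or sham replicate 4. With the liver index Col16a1 (3.64), Col18a1 (4.79), Col27a1 (1.17), Col4a2 (1.505), Col4a6 (0.48), Col5a3 (2.24) and Col7a1 (1.77) kept their direction without passing. So did Bmp1 (1.88), Ddr1 (1.32), Fap (2.37), Itga1 (1.18), Itgb1 (0.96), Loxl3 (3.58), P4ha1 (0.93), Plod2 (1.40) and Serpinh1 (1.42). With dim values raised, Col22a1 (0.41), Col4a6 (0.42) and Col7a1 (0.02) did not pass. Col3a1 was 4.50 without probe sets whose names mark shared probes. As the mean of its probe sets, which include dim ones, Col12a1 was 2.52. The cause was not tested, except that these last values follow from the probe sets read. Among chains dim in both groups, values near the floor limit what change can be seen.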
